A study of Mus musculus with 1376 samples.

Results

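The smooth muscle contractile apparatus is described here through 35 genes taken by name from the count table of 46517 genes. All 35 were found, and all 35 passed the filter on low counts that left 16478 genes for testing. They code for 3 myosin heavy chains, 2 myosin light chains, 4 proteins of the light chain kinase and phosphatase, 11 actin and thin filament proteins, 8 intermediate filament, crosslinking and anchoring proteins, 5 LIM domain proteins and 2 transcription regulators.

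Smooth muscle contracts when myosin light chain kinase phosphorylates the regulatory light chain and myosin filaments pull on actin, and it relaxes when myosin phosphatase removes that phosphate. The thin filament carries tropomyosin, calponin, caldesmon and transgelin, and dense bodies and adhesion plaques tie it to the membrane. Many of these genes are known targets of serum response factor, which binds a DNA motif called the CArG box, and of its coactivator myocardin. In the lung, smooth muscle wraps vessels and airways, and pericytes lie along the capillaries.

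Single cells came from the lungs of 3 mice of the reporter strain ACTA2GFP:CSPG4dsRED, whose names refer to smooth muscle actin and the proteoglycan NG2, and no other treatment or genotype is labelled. Full-length cDNA of each cell was sequenced by Smart-Seq2, which uses no molecular identifiers, so the Poisson interval below covers counting error only. Of the 1376 cells 47.5% came from male mouse 1, 25.6% from male mouse 2 and the rest from female mouse 1, and a cell had 50835 to 1074103 counts. The labels give 8 to 30 weeks of age for every cell, whereas the series text gives 8 to 21 weeks and male mice only. The protocol names heart where the tissue label says lung. No source used here gives the sorting gate, so cell numbers are not shares of the lung. Male mouse 1 filled 2 plates, and the other 2 mice had 1 plate each, so mouse and plate cannot be told apart for them. Between the plates of male mouse 1 the median member differed by -0.26 on the log2 scale in vascular SMC-like, -0.21 in airway SMC-like and -0.15 in pericyte-like cells (the higher-numbered plate minus the other, with no test). Single members differed by more, with 3 members past 1 log2 in airway SMC-like (-1.12 for Csrp2 to 1.05 for Ppp1r12a) and 2 in pericyte-like cells (-1.49 for Synpo2 and 1.32 for Vcl).

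Cells were grouped into classes without the 35 genes and without 55 related contractile genes, so none of these genes placed a cell in a class. Named from their markers, the classes held 35.1% of the cells as vascular smooth muscle cell (SMC)-like, 5.96% as airway SMC-like, 7.7% as pericyte-like, 7.7% as alveolar myofibroblast-like, 10.2% as alveolar fibroblast-like, 6.9% as adventitial fibroblast-like, 4.8% as endothelial-like and 4.72% as macrophage-like, and 16.9% stayed unnamed. The counts of each class were summed within each mouse, and a level is given in CPM, that is, relative to the TMM-scaled total of its sum. Values in threes follow the order male mouse 1, male mouse 2, female mouse 1. The sums tested held at least 12 cells. Fold changes are on the log2 scale with their SE, from edgeR's quasi-likelihood test with the mouse as a block, and a gene was called at a Benjamini-Hochberg adjusted p under 0.05 over all 16478 genes. The comparisons share sums (the vascular sums stand in 3 of them, the alveolar fibroblast sums in 4), so their counts are not independent.

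The pericyte-like class joined 2 clusters. One was led by Clstn2 and had 7, 8 and 31 cells, and the other was led by Col8a1 among other genes and had 19, 4 and 37. Its 12 pericyte markers summed to 5408, 11179 and 8247 CPM, against 1392, 1883 and 1826 CPM in the vascular SMC-like class. The 12 markers of vascular SMC summed to 4464, 6474 and 10032 CPM in it and to 4260, 5466 and 6939 CPM in the vascular SMC-like class, so they did not set the 2 classes apart. The markers of airway SMC summed to 8046, 10174 and 7566 CPM in the airway SMC-like and 6986, 8673 and 7702 CPM in the alveolar myofibroblast-like class, where the values overlapped.

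Promoters of 30 members were present in the RefSeq table (GRCm38.p6), each reaching from 250 bases before to 50 bases after a start. Myh11, Actg2, Csrp2, Myocd and Tagln had none there and were not searched. A CArG box, searched on both strands, on which it reads alike, lay in those of 7 members (23.3%), against 1.81% of the 27025 genes with a promoter and 3 of 44 related genes (6.82%). The 7 were Cnn2, Fhl1, Fhl2, Myl6, Myl9, Srf and Vcl. A gene counted if any of its listed starts had a box, so genes with more starts had more chances. Many genes of the apparatus were known targets of serum response factor beforehand, so the higher share is a description and no test. Shown are the 250 bases before a start for the 4 of them that were lower in pericyte-like than in vascular SMC-like cells, 5′ to 3′ on the gene's strand with the box in capitals. They lie at chr1:43163962-43164211, minus strand (Fhl2), chrX:56779433-56779682, plus strand (Fhl1), chr10:128493010-128493259, minus strand (Myl6) and chr2:156775214-156775463, plus strand (Myl9). Those of Fhl2, Fhl1 and Myl6 lie inside the annotated span of the gene, so these starts are not its outermost one. Other members lower in pericyte-like cells, among them Csrp1, Dstn, Flna and Lpp, had no box in a listed promoter.
Fhl2: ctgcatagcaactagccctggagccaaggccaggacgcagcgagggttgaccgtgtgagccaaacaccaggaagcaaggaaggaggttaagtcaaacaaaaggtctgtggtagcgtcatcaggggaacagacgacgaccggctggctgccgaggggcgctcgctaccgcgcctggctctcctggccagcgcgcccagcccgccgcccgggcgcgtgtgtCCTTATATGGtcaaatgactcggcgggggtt
Fhl1: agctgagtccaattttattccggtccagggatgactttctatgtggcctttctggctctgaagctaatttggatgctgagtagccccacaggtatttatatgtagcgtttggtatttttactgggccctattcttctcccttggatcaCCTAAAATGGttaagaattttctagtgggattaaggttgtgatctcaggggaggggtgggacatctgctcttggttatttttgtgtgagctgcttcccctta
Myl6: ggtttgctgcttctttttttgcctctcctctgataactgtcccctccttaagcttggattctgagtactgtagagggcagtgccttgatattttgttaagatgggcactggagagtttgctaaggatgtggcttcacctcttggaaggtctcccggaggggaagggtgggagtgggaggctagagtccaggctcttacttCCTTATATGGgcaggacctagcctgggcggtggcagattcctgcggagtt
Myl9: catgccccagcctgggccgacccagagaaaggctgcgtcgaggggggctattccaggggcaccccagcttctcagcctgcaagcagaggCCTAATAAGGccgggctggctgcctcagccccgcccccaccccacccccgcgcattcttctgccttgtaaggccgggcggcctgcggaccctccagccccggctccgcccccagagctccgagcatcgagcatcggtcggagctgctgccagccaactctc
The box is centred 26.5 bases before the start in Fhl2, 45.5 in Myl6, 97.5 in Fhl1 and 156.5 in Myl9. Another listed start of Fhl2 has a box centred 91.5 bases before it. A match describes these letters and is no measured binding site.

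The 35 genes together took 4.90%, 5.66% and 5.07% of all counts of vascular SMC-like cells and 4.03%, 5.69% and 4.16% of those of airway SMC-like cells, which overlap. Pericyte-like cells gave 2.65%, 2.01% and 2.48%, alveolar myofibroblast-like cells 1.61%, 1.38% and 1.97%, alveolar fibroblast-like cells 1.12%, 1.21% and 1.11% and adventitial fibroblast-like cells 1.03%, 0.910% and 0.808%. The pericyte-like shares lay below both SMC-like classes and above the myofibroblast-like ones in all 3 mice. Levels of different genes are given per kilobase of exon, with all annotated exons of a gene joined. That length can exceed the transcript a cell makes, so ranks between genes depend on it. On that scale Myl9, the regulatory light chain, stood first in vascular SMC-like cells with a mean of 3305 CPM per kb (2682 to 4536 over the mice). It was followed by Tagln (transgelin) at 1276, the smooth muscle actin Actg2 at 1212 and the actin-severing Dstn (destrin) at 1152 CPM per kb, whose ranges overlapped. Myl9 also led in airway SMC-like and pericyte-like cells, at 2776 and 1490 CPM per kb. The second place was held by Actg2 at 1750 CPM per kb in the airway and by Des (desmin, the muscle intermediate filament) at 566.6 CPM per kb in the pericyte-like class. In alveolar fibroblast-like cells Csrp1, a LIM protein, had 589.2 and Fhl1 524.8 CPM per kb.

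**Figure D1:**
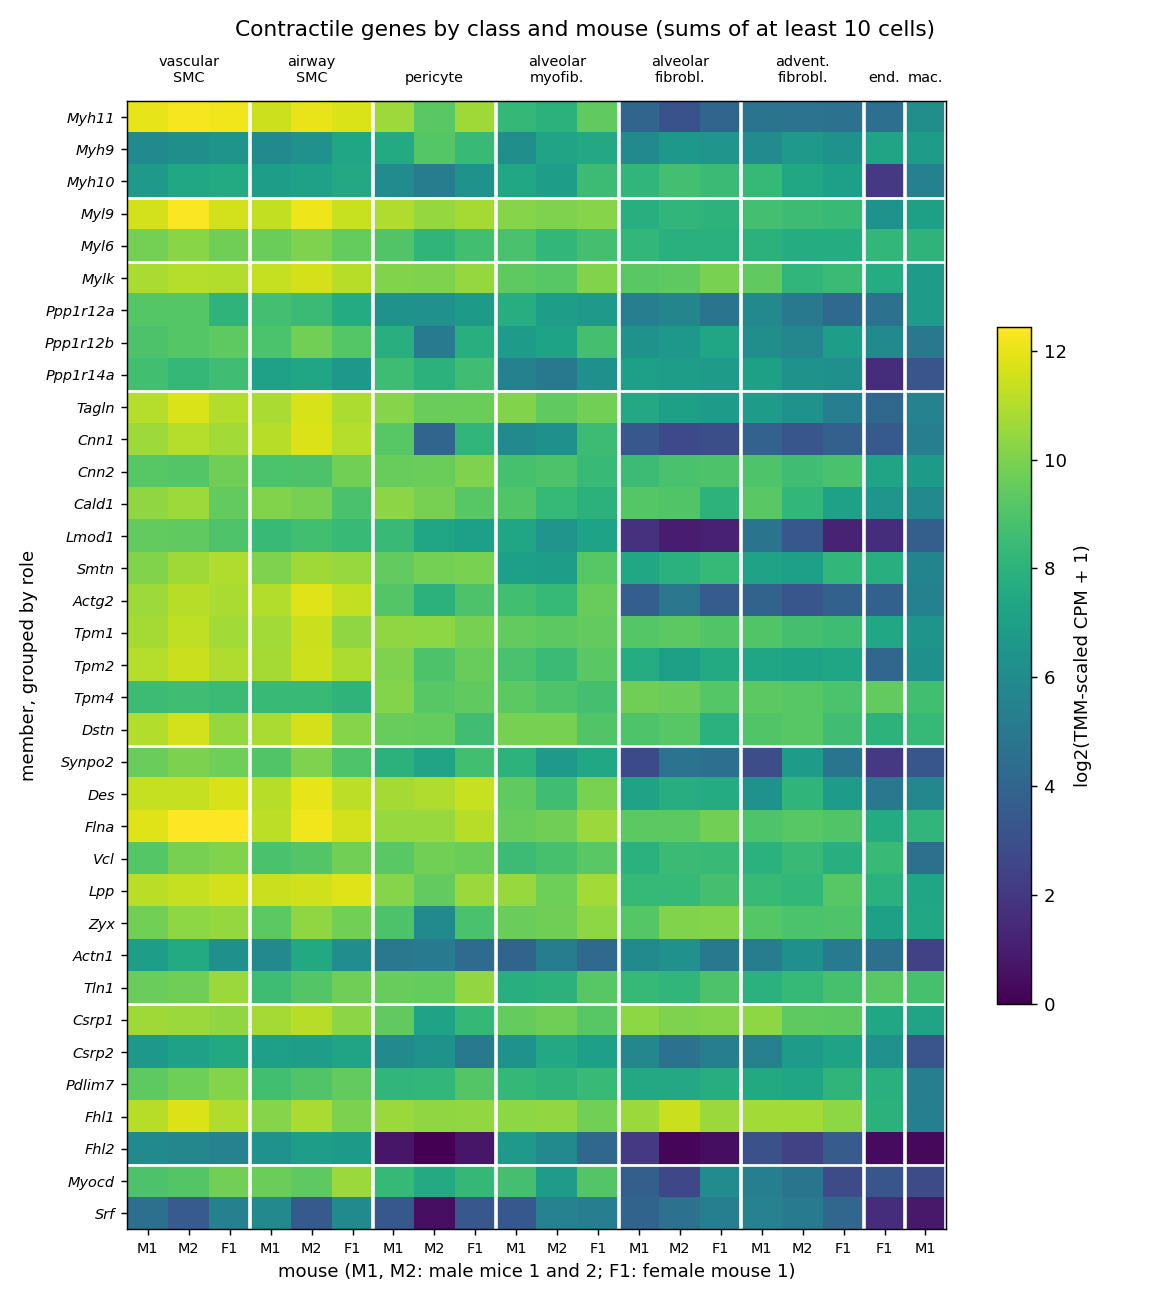
Heat map of log2(TMM-scaled CPM + 1) for the 35 members (grouped by role) in each class and mouse with at least 10 cells (M1 and M2 are male mice 1 and 2, F1 is female mouse 1). Fhl2 is dark in all 3 pericyte-like sums, and Myh11 is bright in both SMC-like classes and dark in alveolar fibroblast-like sums.

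SMC-like cells were first set against alveolar fibroblast-like cells, matrix-producing stroma that served as reference. In vascular SMC-like cells 25 of 35 members were higher and 1 lower, where 6.09% of all tested genes were called, 2.48% higher and 3.6% lower. For airway SMC-like sums 22 were higher and 1 lower, where 5.3% of all tested genes were called, 2.09% higher and 3.22% lower. The member medians were 2.14 and 1.86, beside 0.06 and -0.16 over all genes tested. The lower member was Tpm4, a tropomyosin also used outside muscle, in both.

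Myh11, the smooth muscle myosin heavy chain (chr16:14194535-14291372, minus strand, GRCm38), had 4073, 4934 and 4703 CPM in vascular SMC-like, 2937, 4178 and 3460 CPM in airway SMC-like and 15.4, 7.74 and 15.9 CPM in alveolar fibroblast-like cells. Its log2 fold change over the fibroblasts was 8.52 ± 0.47 for vascular and 8.16 ± 0.46 for airway SMC-like cells (edgeR, adjusted p = 2.12e-07 and 6.18e-07), with no overlap. The non-muscle heavy chain Myh9 had 61.7, 71.3 and 86.9 CPM in vascular SMC-like, 59.8, 77.05 and 161.3 CPM in airway SMC-like and 61.2, 98.2 and 88.2 CPM in fibroblast-like cells, and these ranges overlapped. Myh10, another non-muscle heavy chain, had 105.8, 169.7 and 195.2 CPM in vascular SMC-like, 125.5, 139.9 and 181.6 CPM in airway SMC-like and 287.8, 417.5 and 357.2 CPM in fibroblast-like cells. It lay below the fibroblast values in both SMC-like classes without passing the threshold, at -1.20 ± 0.43 and -1.28 ± 0.43.

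Both light chain genes were called in both comparisons. Myl9 had 3116, 5270 and 3135 CPM in vascular SMC-like, 2532, 4455 and 2690 CPM in airway SMC-like and 222.1, 287.8 and 262.8 CPM in fibroblast-like cells, at log2 fold changes of 3.88 ± 0.25 and 3.63 ± 0.25. Of the 4 kinase and phosphatase genes, 4 were higher in vascular and 3 in airway SMC-like cells. Ppp1r12a, the subunit that targets the phosphatase to myosin, had 574.8, 565.5 and 275.9 CPM in vascular SMC-like and 39.3, 49.03 and 26.5 CPM in fibroblast-like cells, a log2 fold change of 3.59 ± 0.39.

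Among 11 thin filament genes 9 were higher in vascular and 8 in airway SMC-like cells. Lmod1 (leiomodin, which nucleates actin filaments) had 703, 669 and 523.96 CPM in vascular SMC-like, 336.8, 410 and 328.6 CPM in airway SMC-like and 2.40, 0.910 and 1.24 CPM in fibroblast-like cells. Its log2 fold changes were 8.81 ± 0.81 and 8.03 ± 0.78. Cnn1, the smooth muscle calponin, had 1550, 2122 and 1712 CPM in vascular SMC-like, 2171, 3580 and 2161 CPM in airway SMC-like and 9.26, 5.79 and 6.95 CPM in fibroblast-like cells, at 8.01 ± 1.07 and 8.61 ± 1.10. Neither gene had overlapping values. Actg2 had 1598, 2192 and 1873 CPM in vascular SMC-like, 2053, 3627 and 2494 CPM in airway SMC-like and 12.3, 29.7 and 11.4 CPM in fibroblast-like cells, at 6.73 ± 0.52 and 7.26 ± 0.53. Tagln, which binds actin, had 2134, 3383 and 2095 CPM in vascular SMC-like, 1845, 3320 and 1934 CPM in airway SMC-like and 180.8, 133.9 and 118.4 CPM in fibroblast-like cells, at 4.15 ± 0.35 and 4.05 ± 0.35. Tpm2, the muscle beta-tropomyosin, had 2112, 2826 and 1978 CPM in vascular SMC-like, 1758, 2852 and 1913 CPM in airway SMC-like and 208.5, 134.3 and 192.97 CPM in fibroblast-like cells, at 3.71 ± 0.32 and 3.63 ± 0.32. These 3 genes also had every SMC-like value above every fibroblast value. Tpm4 ran the other way, with 365.8, 393.9 and 357.9 CPM in vascular SMC-like, 348.2, 342.8 and 267.99 CPM in airway SMC-like and 856, 782 and 571.1 CPM in fibroblast-like cells. Its log2 fold changes were -0.96 ± 0.20 and -1.19 ± 0.20 (edgeR, adjusted p = 0.0076 and 0.00204).

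Of the 8 filament, crosslinker and anchor genes 6 were higher in vascular and 5 in airway SMC-like cells. Des had 2614, 2642 and 3342 CPM in vascular SMC-like, 2208, 4069 and 2384 CPM in airway SMC-like and 141.1, 213.9 and 200.7 CPM in fibroblast-like cells, at 3.98 ± 0.41 and 3.96 ± 0.41. Synpo2 (synaptopodin 2, an actin-binding protein of dense bodies and Z-discs) had 772, 1017 and 829 CPM in vascular SMC-like, 529.6, 1050 and 522.4 CPM in airway SMC-like and 5.94, 25.5 and 22.2 CPM in fibroblast-like cells, at 5.75 ± 0.86 and 5.36 ± 0.85. Lpp, an adhesion plaque protein, had 2780, 3000 and 3698 CPM in airway SMC-like and 319.4, 319.5 and 441.7 CPM in fibroblast-like cells, at 3.15 ± 0.22. All 3 were called and did not overlap in these comparisons. Among the 5 LIM genes 2 were higher in each comparison. Fhl2, a LIM protein that binds many signalling partners (chr1:43123074-43196984, minus strand, GRCm38), had 58.9, 52.9 and 44.95 CPM in vascular SMC-like, 80.5, 120.3 and 108.9 CPM in airway SMC-like and 3.14, 0.130 and 0.366 CPM in fibroblast-like cells. Its log2 fold changes were 5.89 ± 1.10 and 6.97 ± 1.16 (edgeR, adjusted p = 0.00376 and 0.00205).

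The regulators parted. Myocd (myocardin) had 504.2, 547.98 and 895 CPM in vascular SMC-like, 815, 646.2 and 1508 CPM in airway SMC-like and 12.7, 5.20 and 63.7 CPM in fibroblast-like cells, and it was higher by 4.95 ± 0.82 and 5.48 ± 0.83 on the log2 scale with no overlap. Srf (serum response factor) had 23.6, 10.9 and 43.8 CPM in vascular SMC-like, 57.97, 10.6 and 58.4 CPM in airway SMC-like and 15.2, 25.2 and 40.98 CPM in fibroblast-like cells, and these ranges overlapped. It was called in none of the 7 comparisons fitted with edgeR. Its lowest mean over 3 mice was that of pericyte-like cells, at 9.72, 0.446 and 9.52 CPM, where the second value rests on 1 count.

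Airway were then set against vascular SMC-like cells, which asks whether the apparatus differs between both kinds of smooth muscle. No member was higher in airway SMC-like cells and 3 were lower by edgeR, where 2.09% of all tested genes were called, 1.11% higher and 0.983% lower. At an unadjusted p under 0.05 there were 6 members, a threshold for which no share of all genes is given. DESeq2 called 0 members higher and 3 lower, where it called 6.65% of all tested genes. The member median was -0.12, beside -0.17 over all genes. Ppp1r14a (CPI-17, an inhibitor of myosin phosphatase) had 136.6, 159.6 and 98.7 CPM in airway and 403.7, 307.7 and 391.7 CPM in vascular SMC-like cells. Every airway value was the lower, at a log2 fold change of -1.45 ± 0.34 (edgeR, adjusted p = 0.0392). Fhl1, a LIM protein of muscle, had 1158, 1848 and 1021 CPM in airway and 2192, 3554 and 2026 CPM in vascular SMC-like cells, at -0.95 ± 0.20 (edgeR, adjusted p = 0.0191), again without overlap. Tln1 (talin, which links integrins to actin) had 384.5, 561.7 and 854 CPM in airway and 787, 868 and 1499 CPM in vascular SMC-like cells, at -0.82 ± 0.19 (edgeR, adjusted p = 0.0331), lower in each mouse although the ranges overlapped.

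These 3 calls depended on single mice. Without male mouse 2 only Fhl1 was called, and without male mouse 1 or without female mouse 1 no member was. Of all tested genes 0.898%, 0.539% and 0.592% were called in these fits, in that order. The other genes listed for every comparison did not pass the threshold here: Myh11 had a log2 fold change of -0.36 ± 0.34, Myh9 of 0.36 ± 0.35, Myh10 of -0.08 ± 0.42, Tagln of -0.10 ± 0.31, Cnn1 of 0.59 ± 0.79, Myocd of 0.53 ± 0.68 and Srf of 0.69 ± 0.94. Cnn1 was higher in the airway sum of each mouse. The airway SMC-like sum of male mouse 2 held 13 cells. Immediate early genes (7 genes, a list added after seeing the data) summed to 17603, 15408 and 17090 CPM in airway and 10607, 9772 and 8404 CPM in vascular SMC-like cells, and their part in these results was not tested.

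Pericyte-like cells had less of the apparatus than vascular SMC-like cells, with Myh9 and Tpm4 going the other way. There were 15 members lower, 2 higher and 18 not called, where 3.44% of all tested genes were called, 1.79% higher and 1.65% lower, and the member median was -1.32 beside -0.23 over all genes. Among genes kept out of the clustering, the share called in either direction was 3.35% and 4.84% in a pair of fits that clustered on other genes. By role, 4 of 5 LIM genes, both light chains, 4 of 11 thin filament genes, 3 of 8 anchors, 1 of 4 kinase and phosphatase genes and 1 of 3 heavy chains were lower. The counts depended on every mouse: 3 members were called without female mouse 1, 2 without male mouse 1 and 7 without male mouse 2. Of all tested genes 1.23%, 0.641% and 0.898% were called in these fits. At an unadjusted p under 0.05 there were 26, 26 and 24 members, and 27 with all mice. A level summed over a class does not by itself tell fewer expressing cells from less RNA per cell.

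The widest gap was that of Fhl2. It had 0.686, 0 and 0.670 CPM in pericyte-like cells, resting on 6, 0 and 9 counts, against 58.9, 52.9 and 44.95 CPM in vascular SMC-like cells. No values overlapped, and the log2 fold change was -6.74 ± 1.16 (edgeR, adjusted p = 0.00461). With 1 mouse left out its adjusted p was 0.0633 to 0.0643. A count of Fhl2 was found in part of the cells. After each cell was thinned to 50000 counts, such a count was found in 22.98% of vascular SMC-like cells (exact 95% interval 19.3 to 26.996%). The thinned share was 32.9% in airway SMC-like cells (22.9 to 44.2%) and 2.83% in pericyte-like cells, which were 3 cells (0.588 to 8.05%). All shares of cells in this paragraph pool the mice. The intervals treat cells as independent, so the spread between mice is left out of them. Unthinned shares were 31.1% in vascular SMC-like and 12.3% in pericyte-like cells, at median depths of 214420 and 197910 counts. Macrophage-like cells had a thinned share of 3.08% at a median depth of 243290, near the pericyte-like share. In male mouse 1 they had 0.198 CPM of Fhl2 on 3 counts, below the pericyte-like 0.686 CPM. Whether the pericyte-like share is background was not tested.

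Other LIM genes fell as well. Csrp1 had 679, 144.8 and 315.6 CPM in pericyte-like and 1625, 1540 and 1333 CPM in vascular SMC-like cells, at -2.08 ± 0.38 (edgeR, adjusted p = 0.00618). Fhl1 and Pdlim7, a LIM protein that binds tropomyosin, changed by -0.81 ± 0.20 and -1.20 ± 0.21. Csrp1 kept its call under 14 of 16 alternatives.

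Of the heavy chains, Myh11 had 1574, 619.8 and 1609 CPM in pericyte-like cells, below every vascular value of 4073, 4934 and 4703 CPM, at a log2 fold change of -1.93 ± 0.35 (edgeR, adjusted p = 0.00661). Its adjusted p was 0.0501 to 0.0664 with 1 mouse left out. Myh9 (chr15:77760587-77842175, minus strand, GRCm38) had 193.7, 572.5 and 337.6 CPM in pericyte-like cells, above every vascular value of 61.7, 71.3 and 86.9 CPM. It was higher by 2.23 ± 0.36 (edgeR, adjusted p = 0.00328), and its adjusted p was 0.0549 to 0.107 with 1 mouse left out. Myh10 had 64.1, 36.5 and 82.9 CPM in pericyte-like cells, below its vascular values of 105.8, 169.7 and 195.2 CPM in each mouse, at -1.39 ± 0.43 without passing the threshold. It gained a call in 3 of 16 alternatives. The pericyte-like class was thus lower in the muscle heavy chain and higher in 1 of the 2 non-muscle ones.

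Both light chains were lower. Myl6, the essential light chain, had 526.3, 278.9 and 407.7 CPM in pericyte-like and 917, 1198 and 857 CPM in vascular SMC-like cells, at -1.32 ± 0.25, and Myl9 changed by -1.11 ± 0.23. Ppp1r12a had 79.1, 78.4 and 108.9 CPM against 574.8, 565.5 and 275.9 CPM, at -2.25 ± 0.38 (edgeR, adjusted p = 0.00366). It was the kinase and phosphatase gene called here. Ppp1r14a, the member with the lowest airway values relative to vascular ones, had 378.2, 257.97 and 396.3 CPM in pericyte-like cells, which overlap the vascular values.

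Among thin filament genes Actg2 had 551.9, 253.5 and 503.6 CPM in pericyte-like cells, at -2.09 ± 0.42 relative to its 1598, 2192 and 1873 CPM in vascular SMC-like cells. Dstn had 762, 735 and 398.97 CPM against 2061, 3126 and 1420 CPM, at -1.78 ± 0.19 (edgeR, adjusted p = 0.000134). Among the 12 members ranked here by size, Dstn was the one called under all 16 alternatives in which the pericyte-like class could be fitted. Tpm2 had 1038, 508.4 and 757 CPM against 2112, 2826 and 1978 CPM, at -1.61 ± 0.29. Tagln had 1162, 768 and 796 CPM against 2134, 3383 and 2095 CPM, at -1.49 ± 0.32. The pericyte-like values of all 4 genes lay below the vascular ones. Tpm4 was above, with 1107, 586.3 and 680.4 CPM against 365.8, 393.9 and 357.9 CPM and a log2 fold change of 1.05 ± 0.20 (edgeR, adjusted p = 0.00728). Cnn1, at 586.2, 15.6 and 290.3 CPM and a change of -2.83 ± 0.87, was lower in each mouse but not called. It gained a call in 4 of 16 alternatives.

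Of the anchors, the crosslinker Actn1 (alpha-actinin) had 30.2, 35.2 and 19.5 CPM in pericyte-like and 118.8, 197.4 and 74.4 CPM in vascular SMC-like cells, at -2.11 ± 0.42 (edgeR, adjusted p = 0.00965). Flna (filamin A, which crosslinks actin) had 1463, 1482 and 2183 CPM against 3646, 5577 and 5448 CPM, at -1.51 ± 0.22. Lpp was the remaining one that fell, at -1.29 ± 0.20. Des stayed uncalled, with 1755, 1963 and 2664 CPM in pericyte-like and 2614, 2642 and 3342 CPM in vascular SMC-like cells. Myocd, at 327.4, 194.3 and 309.4 CPM and -1.23 ± 0.70, and Srf, at -2.02 ± 0.98, were not called either. Myocd gained a call in 2 of 16 alternatives and Srf in 0.

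**Figure D2:**
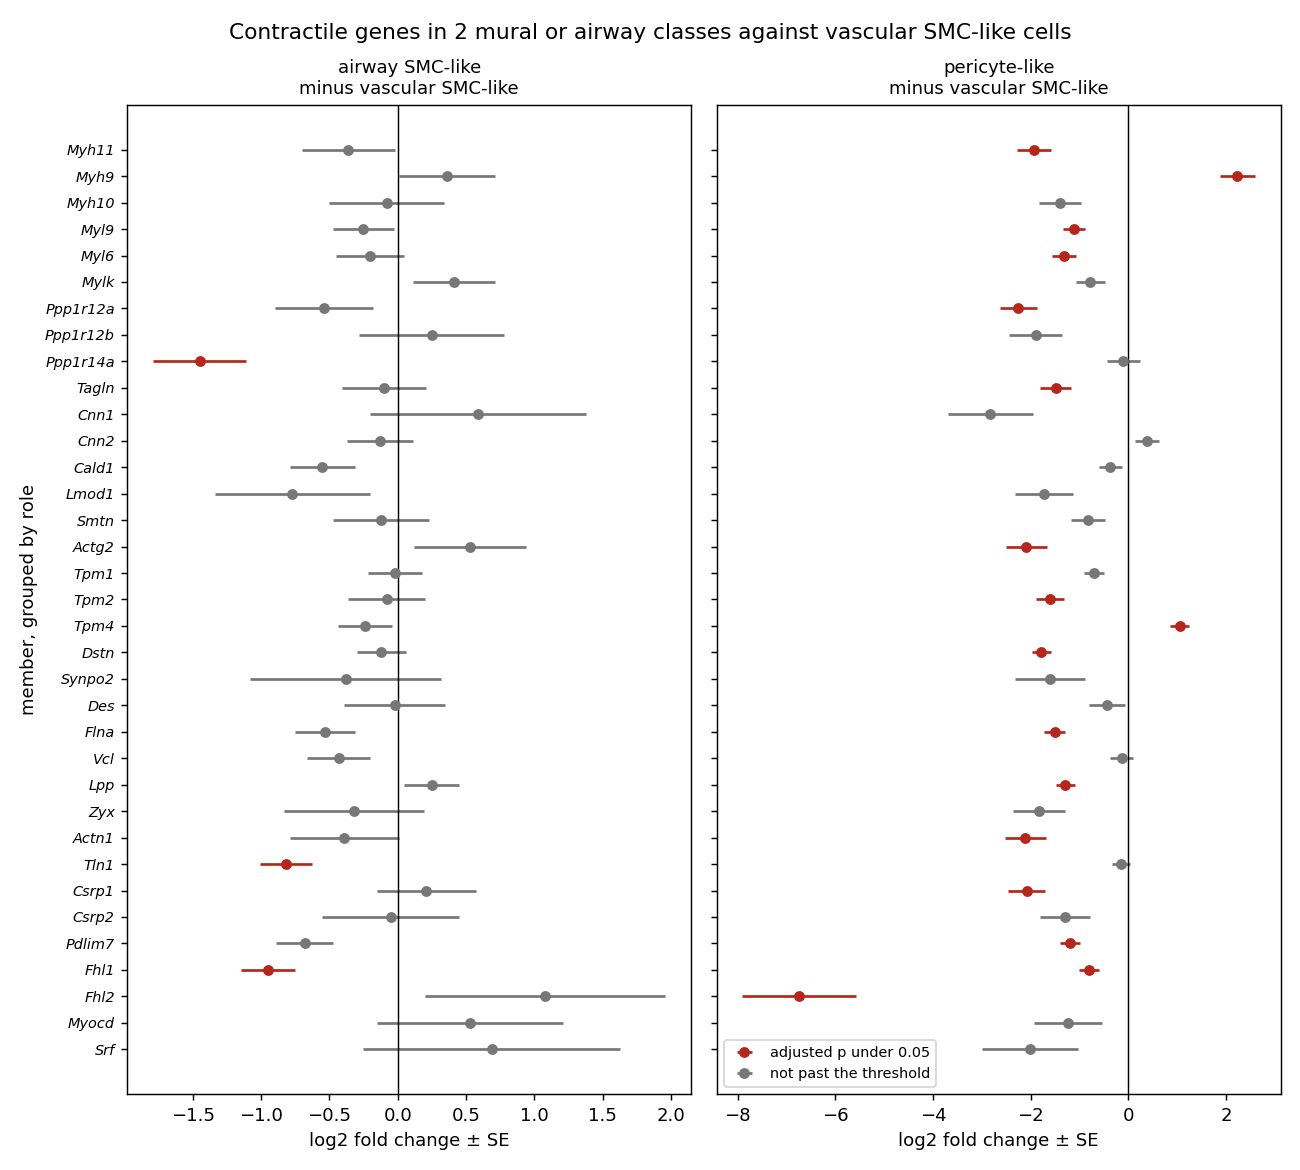
Log2 fold change ± SE of each member in airway SMC-like (left) and pericyte-like (right) cells relative to vascular SMC-like cells, from 3 mice. Red points passed an adjusted p of 0.05 (3 on the left, 17 on the right), and the horizontal scales differ between the panels.

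Levels within the pericyte-like class are given by cluster, with no test. In female mouse 1, the mouse with over 10 cells in both, Myh11 was 2383 CPM in the Col8a1 cluster and 451.7 CPM in the Clstn2 cluster. Myocd was 495.01 and 18.5 CPM, Cnn1 447.4 and 48.9 CPM and Tagln 1204 and 177.03 CPM. These 4 genes were lower in the Clstn2 cluster of that mouse. Fhl2 was near 0 in both, at 0.486 and 1.13 CPM, and Myh9 was above the vascular sum of that mouse in both, at 305.6 and 455.8 CPM. With the Clstn2 cluster as the only pericyte-like class and sums of at least 5 cells, an alternative added after seeing the data, 21 members were lower and 1 was higher than in vascular SMC-like cells, where 7.27% of all tested genes were called. With both clusters and sums of at least 5 cells, 12 members were called, where 1.82% of all tested genes were. Immediate early genes summed to 6937, 1975 and 5357 CPM in pericyte-like cells, below each vascular sum, and their part was not tested.

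**Figure D3:**
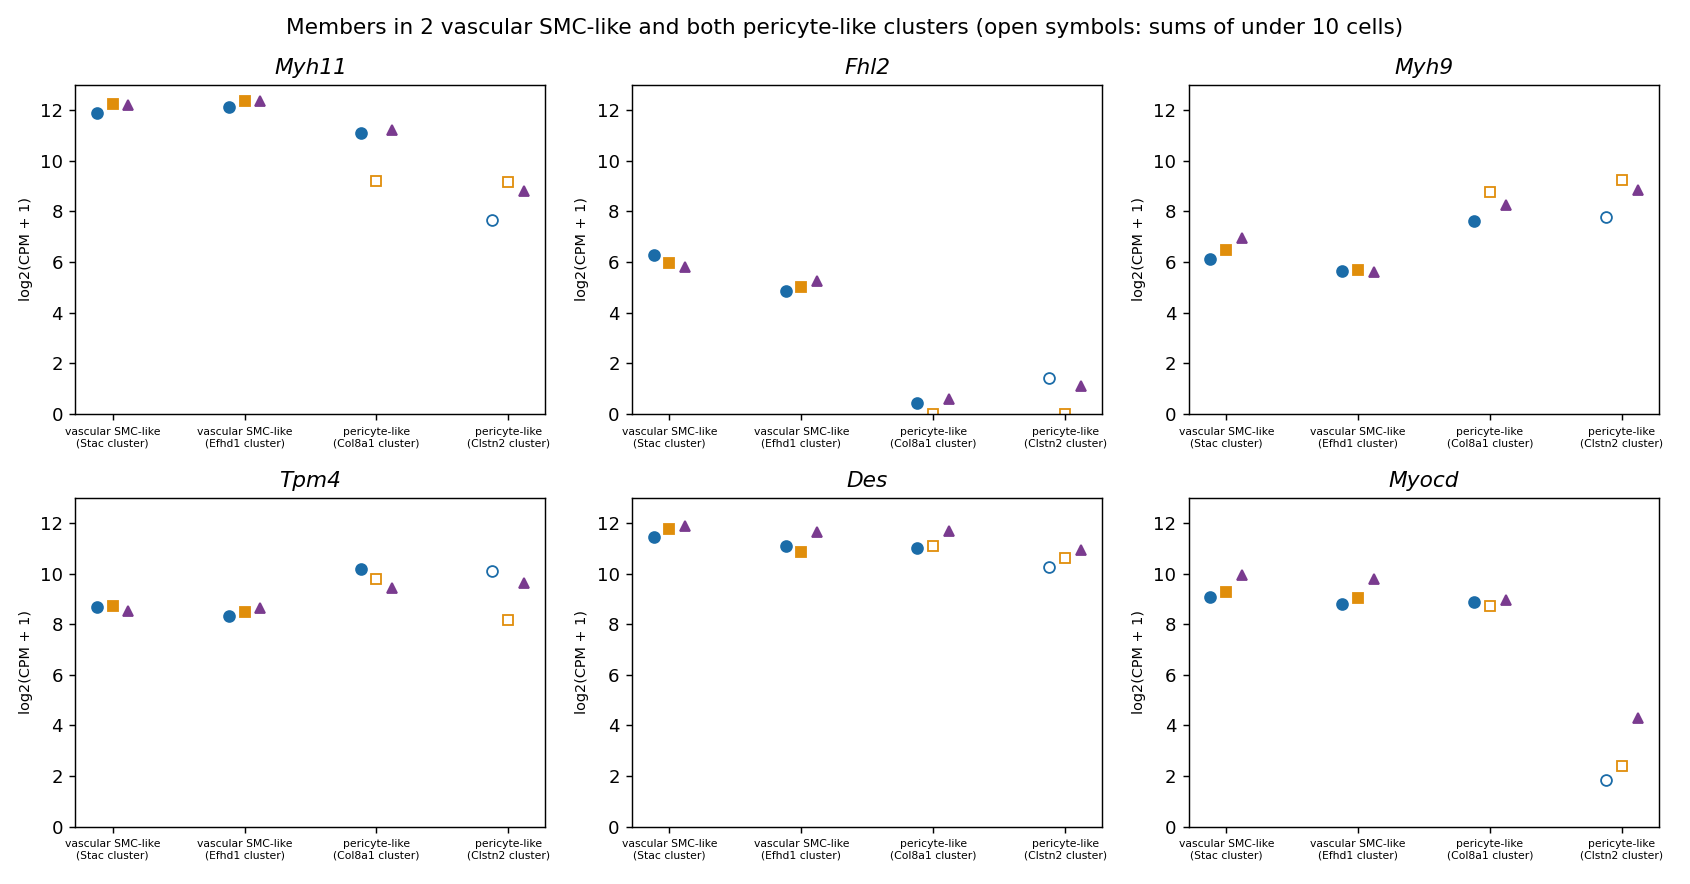
Log2(CPM + 1) of 6 members in the Stac and Efhd1 clusters of vascular SMC-like cells and in both pericyte-like clusters, with a circle for male mouse 1, a square for male mouse 2 and a triangle for female mouse 1; open symbols are sums of under 10 cells. In female mouse 1 Fhl2 is near 0 in both pericyte-like clusters (0.486 and 1.13 CPM), and Myocd is lower in the Clstn2 (18.5 CPM) than in the Col8a1 cluster (495.01 CPM).

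Relative to alveolar fibroblast-like cells, pericyte-like cells had 22 members higher and 2 lower, where 5.26% of all tested genes were called, 1.94% higher and 3.33% lower, with a member median of 1.24 beside -0.16 over all genes. Lmod1 had 331.5, 166.2 and 128.8 CPM in pericyte-like cells, at 7.07 ± 0.75 over the fibroblasts, and Synpo2 had 250.4, 151.5 and 407.97 CPM, at 4.13 ± 0.80. Both lay above every fibroblast value. With the levels given above, the log2 fold changes of the other muscle genes were 6.59 ± 0.43 for Myh11, 5.18 ± 0.96 for Cnn1, 4.64 ± 0.48 for Actg2, 3.72 ± 0.78 for Myocd and 3.54 ± 0.40 for Des. They were 2.77 ± 0.24 for Myl9, whose pericyte-like levels were 2025, 1439 and 1728 CPM, 2.66 ± 0.33 for Tagln and 2.10 ± 0.29 for Tpm2. All 10 of these were called. The non-muscle heavy chains moved apart: Myh9 was higher by 2.09 ± 0.36 and Myh10 lower, at -2.59 ± 0.45 (edgeR, adjusted p = 0.00259 and 0.00281). Csrp1 was the other lower member, at -1.70 ± 0.37. The number called was 15 without female mouse 1, 11 without male mouse 1 and 15 without male mouse 2. With sums of at least 5 cells it was 17. With the Clstn2 cluster alone and that same minimum it was 12, and the change of Myocd turned to -1.56. Over 16 alternatives the lowest changes were 0.13 for Tpm2, 0.18 for Tagln, 0.67 for Actg2, 1.75 for Myl9 and 1.82 for Cnn1. They were 3.07 for Des, 3.58 for Synpo2, 4.29 for Lmod1 and 4.84 for Myh11.

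Alveolar myofibroblast-like cells, stroma with some contractile genes, were set against the same fibroblasts. Of the members, 14 were higher than in alveolar fibroblast-like cells and 0 lower by edgeR, where 2.94% of all tested genes were called, 1.1% higher and 1.84% lower and the member median was 0.64. At an unadjusted p under 0.05 there were 23. DESeq2 called 16 higher and 3 lower, and its larger share of all tested genes is given in the last paragraph. Myh11 had 310.8, 250.5 and 684 CPM in myofibroblast-like cells, at 4.96 ± 0.40 over the fibroblasts, and Fhl2 had 103.03, 58.4 and 17.1 CPM, at 5.92 ± 1.09 (edgeR, adjusted p = 7.70e-06 and 0.00754). Among thin filament genes Lmod1 had 157.2, 88.1 and 149.1 CPM (6.55 ± 0.73), Actg2 413.6, 327.1 and 738 CPM (4.79 ± 0.48), Cnn1 61.3, 76.2 and 364.4 CPM (4.40 ± 0.93) and Tagln 1086, 668 and 882 CPM (2.63 ± 0.33). Each of these 6 was higher than in the fibroblasts in all 3 mice. Anchors followed with Synpo2 at 262.01, 103.8 and 174.8 CPM (3.63 ± 0.79), Des at 684, 401.4 and 977 CPM (1.94 ± 0.38) and Lpp at 1490, 825 and 1664 CPM (1.85 ± 0.21). Myl9 had 1180, 1063 and 1176 CPM (2.16 ± 0.23), Ppp1r12a 217.2, 123.8 and 103.7 CPM (1.92 ± 0.37) and Myocd 433.03, 116.97 and 558.3 CPM (3.95 ± 0.78). Myh9 (0.64 ± 0.35), Myh10 (-0.77 ± 0.43) and Srf (0.35 ± 0.94) were not called. Without male mouse 1 the number called was 6, without female mouse 1 7 and without male mouse 2 10.

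Airway SMC-like cells in turn had 16 members higher than myofibroblast-like cells and 0 lower by edgeR, where 1.32% of all tested genes were called, 0.637% higher and 0.68% lower and the member median was 1.30. At an unadjusted p under 0.05 there were 26. DESeq2 called 22 higher and 1 lower, and its larger share of all tested genes is given in the last paragraph. Both classes carried airway SMC markers at like levels (above). Smtn (smoothelin, a cytoskeletal protein of contractile smooth muscle) had 1052, 1652 and 1468 CPM in airway SMC-like and 127.96, 125.9 and 599.4 CPM in myofibroblast-like cells, at 2.57 ± 0.37 (edgeR, adjusted p = 0.00316). The alpha-actinin Actn1 had 57.7, 184.8 and 67.4 CPM against 14.96, 36.9 and 17.9 CPM, at 2.08 ± 0.42, and Flna 2400, 4618 and 3092 CPM against 761, 868 and 1502 CPM, at 1.72 ± 0.23. Mylk, the light chain kinase, had 2586, 3163 and 2201 CPM against 665, 587.4 and 1091 CPM, at 1.81 ± 0.31. In all 4 genes every airway value was the higher. Tpm1, the alpha-tropomyosin, had 1710, 2811 and 1330 CPM against 696, 638.9 and 691 CPM, at 1.47 ± 0.21, and Tpm2 1758, 2852 and 1913 CPM against 470.7, 354.1 and 620.7 CPM, at 2.20 ± 0.30. With levels already given, Cnn1 changed by 4.21 ± 0.92, Myh11 by 3.20 ± 0.37, Actg2 by 2.47 ± 0.43, Des by 2.01 ± 0.38, Myl9 by 1.47 ± 0.23 and Tagln by 1.42 ± 0.32. None of the 5 LIM genes was called, and Myocd (1.53 ± 0.70), Myh9 (-0.42 ± 0.35), Myh10 (-0.51 ± 0.43) and Srf (0.13 ± 1.0) were not either. Calls here numbered 0 without male mouse 1, 6 without female mouse 1 and 6 without male mouse 2.

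Shares within gene families describe the paralogues of each class, by counts per kilobase of exon. The size of a share depends on the joined exon lengths, which are the same for a gene in every class. Myh11 made up 97.3, 96.8 and 96.1% of the 3 heavy chains in vascular and 95.9, 96.6 and 93.8% in airway SMC-like cells. Its share was 90.7, 63.1 and 86.2% in pericyte-like, 64.9, 58.2 and 64.5% in myofibroblast-like and 5.92, 2.10 and 4.85% in alveolar fibroblast-like cells. Taken as means of the share over cells, the fibroblast values were 23.7, 4.56 and 13.9% and the pericyte-like ones 78.3, 49.98 and 77.8%. The pericyte-like value of male mouse 2, a sum of 12 cells of which 8 were in the Clstn2 cluster, was the low one. In the fibroblasts Myh10 was the main heavy chain, at 80.6% ± 1.5 (SD, n = 3 mice). Pericyte-like cells had Myh9 at 6.56, 34.2 and 10.6% and Myh10 at 2.87% ± 0.307.

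Among tropomyosins Tpm2 made up 62.7% ± 0.992 (SD, n = 3 mice) in vascular and 62.7% ± 3.96 in airway SMC-like cells. Its lead over Tpm1 rests largely on exon length (2909 bases for Tpm2, 6485 for Tpm1). Before that division, vascular SMC-like cells of male mouse 1 had 2112 CPM of Tpm2 and 1766 CPM of Tpm1. Tpm2 made up 32.4% ± 4.59 in pericyte-like, 32.4% ± 7.86 in myofibroblast-like and 12.9% ± 3.54 in alveolar fibroblast-like cells. Tpm4 held 13.6% ± 1.63 in vascular SMC-like, 43.98% ± 2.78 in pericyte-like and 68.5% ± 4.19 in fibroblast-like cells. The Tpm4 share was 30.4 points higher in pericyte-like than in vascular SMC-like cells, higher in 3 of 3 mice. With 3 mice the two-sided exact sign-flip permutation test cannot go below p = 0.25, the value it gave. Fhl2 made up 13.5% ± 3.27 of Fhl1 and Fhl2 in airway and 3.998% ± 1.09 in vascular SMC-like cells, higher in 3 of 3 mice (exact permutation p = 0.25, the smallest possible).

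**Figure D4:**
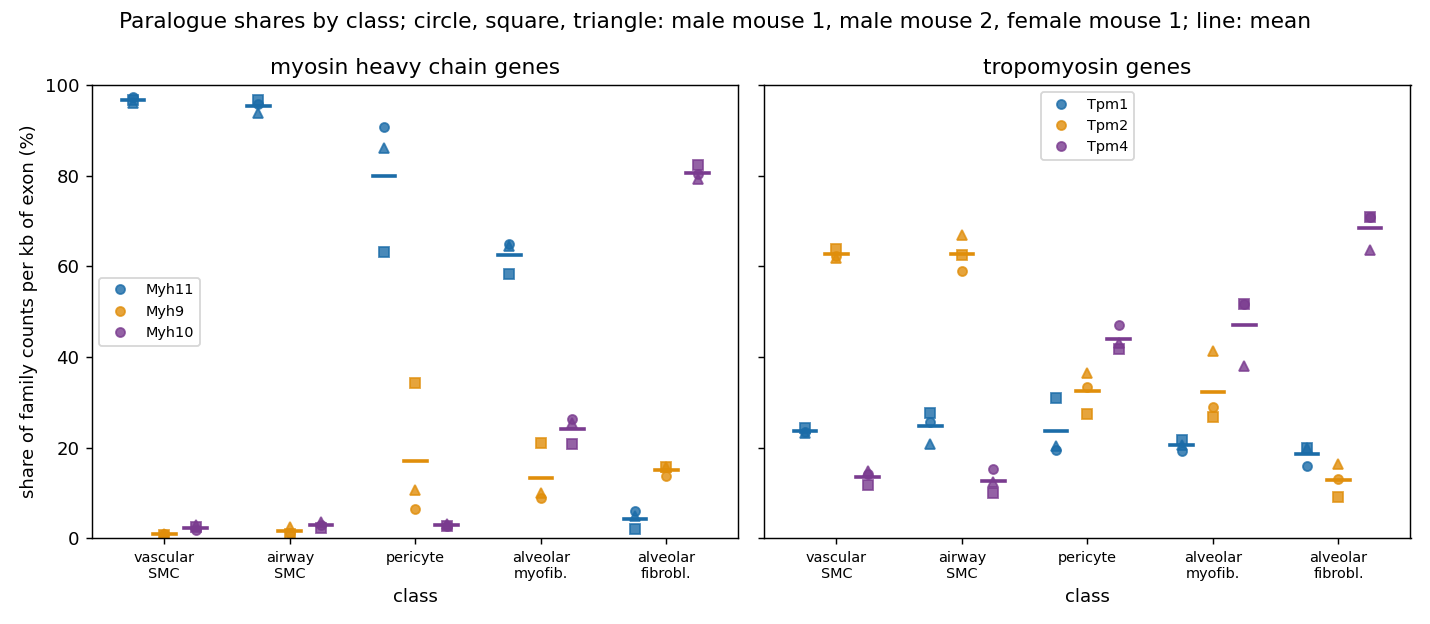
Share of each gene in the counts per kilobase of its family (%), for myosin heavy chains (left) and tropomyosins (right) in 5 classes, with symbols for the 3 mice and lines for their mean. Myh11 and Tpm2 lead in both SMC-like classes, and Myh10 and Tpm4 lead in alveolar fibroblast-like cells.

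Endothelial-like and macrophage-like cells reached 10 cells in 1 mouse each, so they have no test. In female mouse 1, 28 members were at least 4-fold higher in vascular SMC-like than in endothelial-like cells and 0 were 4-fold lower, where 17.8% of all genes were at least 4-fold higher and 14% lower. In male mouse 1, 30 were at least 4-fold higher than in macrophage-like cells, where 21.9% of all genes were. Myh9, Myl6, Tpm4 and Tln1 stayed within 4-fold in both comparisons. Myh9 had 154.98 CPM (Poisson interval 147.6 to 162.6, counting error only) in endothelial-like and 86.9 CPM in vascular SMC-like cells, and Tpm4 had 690.1 and 357.9 CPM. In macrophage-like cells Tpm4 had 413.6 CPM, against 365.8 CPM in vascular SMC-like cells of the same mouse.

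Macrophage-like cells of male mouse 1 also had 69.4 CPM of Myh11, 39.4 CPM of Cnn1 and 12.7 CPM of Lmod1, each above the alveolar fibroblast-like level of that mouse. After thinning, with the mice pooled, a Myh11 count was found in 60% of macrophage-like, 56.1% of endothelial-like and 42.1% of alveolar fibroblast-like cells. Their median depths were 243290, 151320 and 310440 counts. The fibroblast level of Myh11 therefore cannot be told from background. Fold changes over fibroblasts of Myh11, Cnn1, Lmod1, Actg2, Synpo2 and Ppp1r12a are measured against levels below the macrophage-like ones in male mouse 1.

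Within vascular SMC-like cells the members varied together in part. Over all pairs of members, the median of the Spearman correlations, computed in each mouse over 58 cells or more, was 0.07. The highest pairs were Myl9 with Tagln (0.72, 0.78 and 0.85), Myl9 with Myl6 (0.78, 0.76 and 0.68) and Myl9 with Tpm2 (0.74, 0.62 and 0.77). The CPM of these genes was lower in cells with a higher total count: the Spearman correlation with the total was -0.76, -0.64 and -0.84 for Myl9, -0.74, -0.73 and -0.59 for Myl6, -0.58, -0.54 and -0.66 for Tagln and -0.64, -0.38 and -0.50 for Tpm2. The part of depth in these correlations was not tested, and for Myh11 the correlation with the total was -0.13, 0.15 and -0.11. Myocd reached a median over the mice of at most 0.18 with any other member, which was Des. All pairs share the library and the depth of a cell, so they are descriptions.

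Of 55 related contractile and cytoskeletal genes, 51 passed the filter on low counts, and their counts stand beside the percentage of all tested genes called in the same comparison. In vascular SMC-like relative to alveolar fibroblast-like cells 17 were higher and 3 lower (6.09% of all genes), with a median of 1.26. The largest changes were those of Kcnmb1 (the beta subunit of the large-conductance potassium channel of smooth muscle, 7.92 ± 0.66), Cap2 (an actin-binding protein, 7.59 ± 0.75) and Pcp4l1 (7.52 ± 0.54). Airway SMC-like cells had 20 higher and 2 lower (5.3%), pericyte-like cells 10 and 2 (5.26%), and myofibroblast-like cells 4 and 2 (2.94%). Pdlim3, a LIM protein that binds alpha-actinin, rose by 8.27 ± 1.08 in airway SMC-like and 6.91 ± 1.02 in myofibroblast-like cells. Between pericyte-like and vascular SMC-like cells 1 was higher and 11 lower (3.44%), with changes of -5.61 ± 1.40 for the kinase Mylk4, -5.31 ± 1.20 for the intermediate filament protein Synm and -4.73 ± 0.94 for Pdlim3. Airway relative to vascular SMC-like cells had 0 higher and 1 lower by edgeR, with 12 at an unadjusted p under 0.05, and the 1 was Mylk4 at -8.51 ± 1.63. That 1 of 51 is near the 2.09% called over all genes. Against myofibroblast-like cells, airway SMC-like cells had 7 related genes higher and 1 lower (1.32%), Kcnmb1 among them at 6.98 ± 0.63.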

How the data were processed

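Raw counts per gene and cell were deposited by the authors. Per the submitters' processing notes, which give no order or role, the tools named include bcl2fastq, Bowtie2 and featureCounts of Subread, and the build is GRCm38 (mm10). Strand setting and treatment of multimapped reads are not stated in the sources used here: overlapping genes and close paralogues are uncertain. Genes without a symbol (512) held 0.184% of counts. Members and lists were chosen with earlier results of these data known.

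Cells were clustered on 2000 variable genes outside the contractile lists, standardised within each mouse (30 components, 15 neighbours, Leiden resolution 1). The naming score, its margin of 0.2 and the scaling within mice were set after seeing the clusters. No doublet caller was run. Counts were summed per class and mouse (at least 10 cells; 2163400 to 77539205 counts per sum) and tested with edgeR 4.0.16 in R 4.3.3: TMM, filterByExpr, quasi-likelihood fit, Benjamini-Hochberg over 16478 genes. The mouse was a block because the same animals gave all classes. A check of the test on simulated data used the same spread for all genes and no mouse effect. It therefore does not cover the spread and pairing of the real sums. DESeq2 1.42.0, limma 3.58.1 on log2(CPM + 1) means over cells, and other filters and clusterings were alternatives. Exonic lengths, with all annotated exons of a gene joined, came from GENCODE M21.

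Members given one by one were the called ones with the largest change, up to 12 per comparison, plus Myh11, Myh9, Myh10, Tagln, Cnn1, Myocd and Srf. Of related genes, up to 3 called per comparison could be named. Ppp1r14a and Des against vascular cells, Tpm4 and the values of uncalled members beyond this rule were chosen after they were seen.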

Additional observations from a re-analysis of the deposited data

Results flagged for a closer look

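Cells that entered no comparison because their cluster stayed unnamed carried contractile genes above the level of macrophage-like cells, and this was not tested. In the unnamed cluster led by Osr2 and Chrdl1 among other genes, male mouse 1 had 2208 CPM of Myh11, 1115 CPM of Cnn1, 399.4 CPM of Lmod1 and 124.3 CPM of Fhl2. That cluster had 30 cells or more in each mouse, with Fhl2 at 124.3, 99.9 and 131.9 CPM in male mouse 1, male mouse 2 and the female mouse, above each vascular SMC-like value (58.9, 52.9 and 44.95 CPM). In the unnamed cluster led by Spry2, Crebl2 and Cbx3, male mouse 1 had 3356 CPM of Myh11, 897 CPM of Cnn1, 487.7 CPM of Lmod1 and 116.8 CPM of Fhl2, and 66 of its 72 cells came from that mouse. Macrophage-like cells of male mouse 1 had 69.4 CPM of Myh11, 39.4 CPM of Cnn1, 12.7 CPM of Lmod1 and 0.198 CPM of Fhl2.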

How the results depend on the processing

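Over 19 alternatives (16 where the pericyte-like class was needed), single members kept direction and call in 84.8% of values, lost the call in 13.1%, gained one in 0.607% and turned direction in 1.49% (27 values). The kept values include uncalled members that stayed uncalled and could lose no call. For airway against vascular SMC-like cells Ppp1r14a lost its call in 11 and Tln1 in 13 of 19 alternatives. Tagln lost it in 15, Des in 13 and Actn1 in 12 of 19 for airway against myofibroblast-like cells. Fhl2 lost its call in 11 of 19 for myofibroblast-like against alveolar fibroblast-like cells. Myh11 kept it in all 19 for vascular SMC-like against fibroblast-like cells. Vascular SMC-like and airway SMC-like cells against alveolar fibroblast-like cells had 19 to 29 and 17 to 26 members called (26 and 23 as reported). The cause of the changes below was not tested.

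For airway against vascular SMC-like cells (3 called), 1 was called with RLE factors, with clustering on part 2 of the genes, with only the 2 classes compared and with the stricter cell filter. There 0 were called by edgeR with sums of at least 5 cells (5 at an unadjusted p under 0.05), without scaling within mice (3), with the Clstn2 cluster as the pericyte class and at least 5 cells (5) and with no replicate block (2), where the pairing comes from the mice. Leaving out 1 mouse gave 0 to 1. For pericyte-like against vascular SMC-like cells (17 called), only the 2 classes gave 2, the stricter filter 7, leaving out 1 mouse 2 to 7 and no replicate block 12. Against alveolar fibroblast-like cells, pericyte-like cells (24 called) had 17 with at least 5 cells per sum, 12 with that minimum and the Clstn2 cluster alone, 11 to 15 with 1 mouse left out and 18 without the block, and myofibroblast-like cells (14 called) had 8 with only the 2 classes, 6 to 10 with 1 mouse left out and 13 without the block. For airway against myofibroblast-like cells (16 called) there were 10 with at least 20 cells per sum, 8 with at least 5, 7 with at least 5 and the Clstn2 cluster, 7 with the stricter filter, 9 with no replicate block and 0 to 6 with 1 mouse left out. There 0 were called by edgeR without scaling within mice (23 at an unadjusted p under 0.05), with only the 2 classes (26) and without male mouse 1 (24).

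Turned directions were all of uncalled values but for Myocd in pericyte-like against fibroblast-like cells, at -1.56 with the Clstn2 cluster and at least 5 cells per sum. For airway against vascular SMC-like cells, Myh10 became 0.0038 with DESeq2, 0.004 with RLE, 0.003 on part 1 of the genes and 0.05 without male mouse 2 (lowest with a mouse left out -0.24). Tagln became 0.13 on part 2, 0.05 without scaling within mice and 0.13 with the stricter filter, and Myh9 -0.28 and -0.05 under the latter pair. In vascular SMC-like against fibroblast-like cells Myh9 became 0.12 on part 2, 0.11 without scaling, 0.00079 without male mouse 2 and 0.24 with the stricter filter, and Srf 0.30 without male mouse 2 (lowest -0.54) and 0.21 with limma. In airway SMC-like against fibroblast-like cells Myh9 became -0.17 without scaling and -0.17 without female mouse 1 (highest 0.45), and Srf -0.30 without male mouse 1 (highest 1.17). In myofibroblast-like against fibroblast-like cells Srf became -0.01 and -0.30 at Leiden resolutions 0.5 and 2, and -0.25 without male mouse 2 (highest 0.58). In airway against myofibroblast-like cells Srf became -0.0031 on part 1, -0.08 without scaling, -0.19 without female mouse 1 and -0.83 without male mouse 1 (highest 1.42), and Myh9 0.04 with limma. Of 70 differences in share, 21 moved by more than their SD over mice with means over cells, among them those of Myh11 and Myh10 against fibroblast-like cells in each comparison, and 5 turned: Tpm1 to 1.24 points (pericyte-like against vascular) and -3.45 (airway against myofibroblast-like), Tpm2 to -1.43 and Tpm4 to 0.42 (airway against vascular), and Ppp1r12a to 0.24 (pericyte-like against vascular).

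Over all tested genes, edgeR called 2.09% and DESeq2 6.65% for airway against vascular SMC-like cells, and 3.44% and 11% for pericyte-like against vascular SMC-like cells. Against alveolar fibroblast-like cells the values were 6.09% and 11% (vascular), 5.3% and 12.8% (airway), 5.26% and 13.6% (pericyte-like) and 2.94% and 8.42% (myofibroblast-like), and for airway against myofibroblast-like cells they were 1.32% and 8.09%. The lowest percentages over the alternatives were, in the same order, 0.487, 0.641, 2.38, 1.76, 1.82, 0.701 and 0.0224. At Leiden resolutions 0.5 and 2 and with contractile genes in the clustering, the pericyte-like class had too few cells per mouse and gave no value. Endothelial-like cells could not be fitted under any alternative. The pericyte-like values of Fhl2 rest on at most 9 counts each, in sums of at least 2163400 counts.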
